A study of Mus musculus with 11 samples.

Results

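Skeletal muscle fibres meet sudden energy demand with their own isoforms of several enzymes. Muscle creatine kinase (Ckm) and sarcomeric mitochondrial creatine kinase (Ckmt2) move phosphate between ATP and creatine, AMP deaminase (Ampd1) keeps the adenylate pool charged, glycogen phosphorylase (Pygm), phosphofructokinase (Pfkm) and enolase (Eno3) carry glycogen and glucose carbon through glycolysis, and Cox6a2 is the heart and muscle version of a cytochrome c oxidase subunit. These 7 genes were taken by name, with earlier results of these data already known. They were followed in brown adipose tissue (BAT), the heat-producing fat depot, and in liver. All 7 were among the 2500 genes of the BAT table, and 3 of them (Ckm, Pygm and Eno3) were among the 2500 genes of the liver table. In bulk tissue such genes report on striated muscle fibres as well as on other cells, since brown fat itself is known to express some of them, and fewer cells of a type cannot be told apart from less RNA per cell.

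Poly(A) RNA was sequenced from mice homozygous for a floxed allele of Adcyap1r1, the gene of a receptor for the neuropeptide PACAP, a genotype that controls and Cre mice shared. An adeno-associated virus placed in the preBötzinger complex, the brainstem site of the breathing rhythm, carried GFP in controls (AAV-GFP) and Cre recombinase in the other group (AAV-Cre). All mice went through a procedure abbreviated SEFL, which the labels do not expand. Age, strain and the promoter driving Cre are not given in the sources used here. The comparison asks what loss of the receptor at that brain site does to peripheral tissue. In BAT the controls numbered 2 (called 1 and 2) and the Cre group 3 (called 4, 5 and 6). In liver each group had 3, controls 7, 8 and 9 and Cre 10, 11 and 12. No label says that libraries came from separate animals, so each p-value measures only the spread between these libraries. Values are row z-scores: for each gene, its mean over 6 libraries of the tissue was subtracted and the result scaled by the SD over them, so a value of 1 lies 1 SD above that gene's mean, the highest possible value is 2.24, and levels of different genes, fold changes and sequencing depth are unknown. In BAT 5 of the 6 scaled libraries were analysed here.

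Several libraries stood apart whatever their group. BAT control 1 was the highest library for 70.7% of genes. It was the highest for all 4 Y-linked genes, with a mean z-score of 2.21 against -0.550 to -0.216 in the other BAT libraries. The part of this contrast in the group differences was not tested. Control 1 also had a mean z-score of 2.16 over 11 T and NK cell markers. Cre 4 had 2.20 over 4 lung epithelium markers, and Cre 6 had 2.12 over 8 hepatocyte markers. Liver control 8 had 1.98 over 6 B cell markers and -1.51 over 5 hepatocyte markers, control 7 was the highest library for the 4 Y-linked genes, and Cre 12 had 2.06 over 5 adipocyte markers. The tissue labels could not be checked by level, because z-scores keep none. Of 10 brown adipocyte markers 2 were in the BAT table, Dio2 and Kcnk3, and Ucp1 was not listed there. Of 9 hepatocyte markers 5 were in the liver table.

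In BAT, all 7 genes lay lower in the Cre libraries, and for all 7 every Cre library was below both controls. Over all 2500 BAT genes, 82.5% had a lower Cre mean and 28.7% were lower without overlap of the groups. The 7 genes and the marker lists used below were chosen with earlier results of these data known. Their counts beside such shares are therefore descriptions and not tests. The sheet that held the BAT table was named for genes downregulated in Cre and that of the liver table for genes upregulated in Cre, yet 438 BAT genes had a higher Cre mean and 1511 liver genes a lower one. A choice of genes by direction would bear on these shares, and on any direction read in either tissue, and was not tested. Cre minus control ranged from -1.53 for Ckm to -1.90 for Pfkm, with a median of -1.71, beside a median of -1.29 over all genes. No gene passed limma's gene-wise linear model after Benjamini-Hochberg adjustment over the 2500 genes (0% of the table, adjusted p from 0.405 to 0.531 for the 7 genes). At an unadjusted p under 0.05 the model held 1 of the 7, Pfkm, beside 10.5% of all genes on the lower side and 0.92% on the higher side.

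Ckm, the cytosolic creatine kinase of muscle, had z-scores of 1.07 in control 1 and 0.917 in control 2. Cre 4 had -1.95, Cre 5 had 0.277 and Cre 6 had 0.069. The controls sat together and above every Cre library, while Cre 4 was far below the other two. The control mean was 0.993 ± 0.107 (SD, n = 2) and the Cre mean -0.534 ± 1.23 (SD, n = 3). The difference of -1.53 had a standard error of 0.917 and a 95% interval from -4.44 to 1.39 in limma's gene-wise model (adjusted p = 0.531).

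Ckmt2, the mitochondrial partner of Ckm in striated muscle, had 1.24 and 1.17 in the controls and -1.66, -0.220 and 0.027 in Cre 4, 5 and 6. The order of Cre 5 and Cre 6 was turned relative to Ckm, and Cre 5 minus Cre 6 was -0.247. The difference was -1.82 with a standard error of 0.681 (limma adjusted p = 0.487). Ampd1, which converts AMP to IMP and so pulls the adenylate kinase reaction towards ATP, had 1.08 and 1.13 in the controls and -1.84, 0.053 and -0.015 in Cre 4, 5 and 6. Control 2 was its highest library, by a margin of 0.054. The difference was -1.71 with a standard error of 0.799 (limma adjusted p = 0.531).

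Among the carbohydrate enzymes, Pygm, which releases glucose 1-phosphate from muscle glycogen and whose loss causes McArdle disease in humans, had 1.15 and 0.982 in the controls and -1.87, 0.174 and 0.0094 in Cre 4, 5 and 6. Eno3, the beta subunit of enolase, had 1.15 and 1.06 in the controls and -1.80, 0.166 and -0.013 in the same Cre libraries. Both repeated the order seen for Ckm, with control 1 above control 2 and Cre 5 above Cre 6. Their differences were -1.63 (standard error 0.847) and -1.65 (standard error 0.809).

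Pfkm, the muscle subunit of the enzyme at the committed step of glycolysis, had 1.34 and 1.27 in the controls and -1.33, -0.079 and -0.381 in Cre 4, 5 and 6. It had the highest control values of the 7 and the least extreme value in Cre 4, so its 3 Cre libraries were the closest together, with a Cre SD of 0.655 against 0.913 to 1.23 for the other genes. The difference of -1.90 had a standard error of 0.489 and a 95% interval from -3.46 to -0.347, and limma gave it an unadjusted p of 0.030 and an adjusted p of 0.405. Cox6a2, the respiratory chain member, had 1.11 and 1.15 in the controls and -1.80, 0.0046 and -0.030 in Cre 4, 5 and 6. Its controls were the closest of the 7, differing by 0.038, and Cre 5 and Cre 6 differed by 0.035. The difference was -1.74 with a standard error of 0.769 (limma adjusted p = 0.530).

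**Figure D1:**
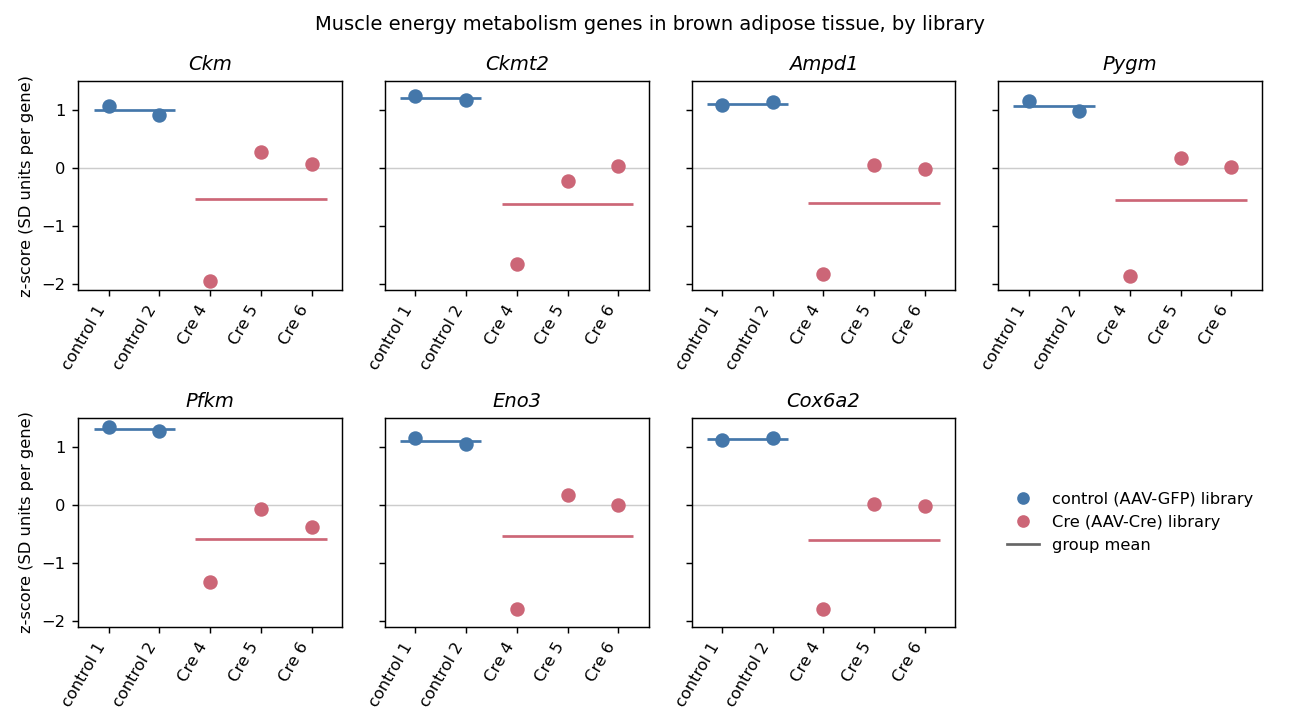
Z-score of each of the 7 genes (vertical axis, SD units per gene) in each BAT library (horizontal axis); points are libraries, blue for control and red for Cre, and lines are group means. For all 7 genes both controls lie between 0.917 and 1.34, Cre 5 and Cre 6 lie between -0.381 and 0.277, and Cre 4 lies between -1.95 and -1.33.

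The exact two-sided permutation test of the difference of means, over all 10 arrangements of the BAT libraries, gave p = 0.1 for Ckmt2, Ampd1, Pfkm and Cox6a2 and p = 0.2 for Ckm, Pygm and Eno3. With 3 libraries against 2 this test cannot go below 0.1.

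The 7 genes shared a stepped profile in BAT: both controls high, Cre 5 and Cre 6 in the middle and Cre 4 at the bottom. Cre 4 was the lowest library for all 7 genes, beside 39.1% of all BAT genes, and the whole pattern of controls above all Cre libraries with Cre 4 lowest was found in 21.5% of all BAT genes. The lowest control exceeded the highest Cre library by 0.640 in Ckm and by 1.35 in Pfkm, with the other genes between. Over the 717 BAT genes that were lower in Cre without overlap, the median of this gap was 0.888. The distance from Cre 4 up to the next Cre library was 2.02 in Ckm and 0.952 in Pfkm, beside a median of 0.517 over the same 717 genes. Lung epithelium markers also moved with Cre 4 (4 of 9 listed in the table, mean 2.20 there and -0.576 to -0.299 in the other libraries), and their part in the low values of Cre 4 was not tested.

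The controls of these genes were close to each other in a table where controls mostly were not. Controls 1 and 2 differed by 0.038 to 0.169 in the 7 genes, while the absolute difference had a median of 2.17 over all 2500 BAT genes, with quartiles of 0.595 and 2.70. This closeness was not particular to the 7 genes. Mean z-scores in controls 1 and 2 were 1.12 and 1.01 for fast fibre, 1.08 and 1.27 for slow fibre and 1.18 and 1.13 for sarcomere markers. Single markers could lie further apart, such as Myh1 with 0.853 and 1.32. T and NK cell markers, at 2.16 in control 1 and -0.627 in control 2, had no such closeness. The highest value was in control 1 for 5 genes and in control 2 for the other 2, Ampd1 and Cox6a2, where 70.7% and 8.72% of all BAT genes were highest in these controls.

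Groups that do not overlap stay apart when a library is dropped. All 7 genes were therefore bound to remain lower in Cre without overlap with any single BAT library left out. The share of all BAT genes was 77.0% without control 2, 42.0% without Cre 5 and 31.6% without Cre 6. Without Cre 4 the differences shrank to between -0.820 for Ckm and -1.53 for Pfkm, with a median of -1.09, and 31.1% of all BAT genes were then lower without overlap. The Ckm value without Cre 4 is over 1.5 times smaller than with it, as are those of Pygm, Eno3, Ampd1 and Cox6a2 (-0.974, -1.02, -1.09 and -1.15). Ckmt2 kept -1.30. Without control 1, where control 2 stands by itself and is taken to have the spread of the Cre libraries, the differences ran from -1.45 to -1.87, while the median over all genes moved from -1.29 to near 0, and 31.1% of all BAT genes were lower without overlap. In none of these fits did any of the 7 genes pass the adjusted threshold of 0.05 (limma adjusted p from 0.161 to 0.959).

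**Figure D2:**
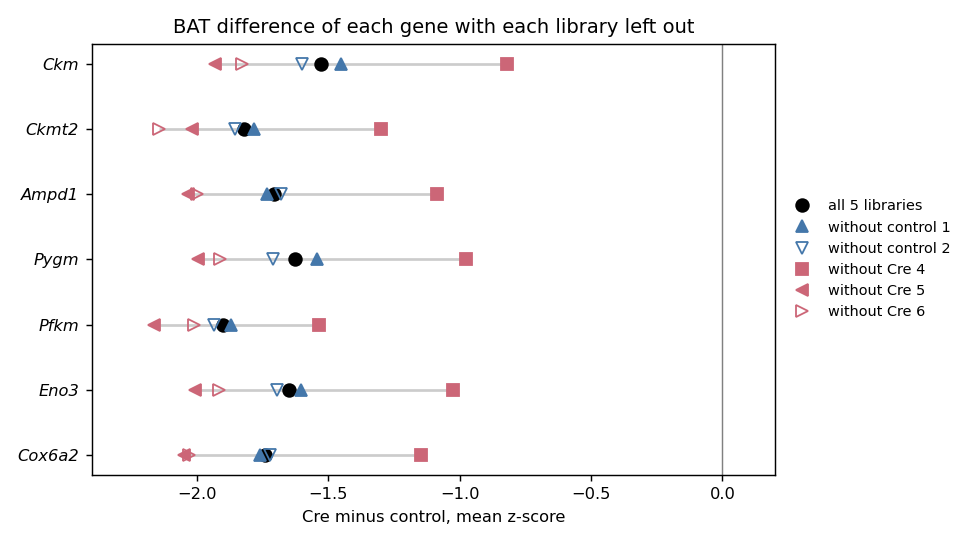
Cre minus control in BAT (horizontal axis, mean z-score) for each of the 7 genes (vertical axis) with all 5 libraries (black) and with each library left out in turn. All values lie below 0, and the values nearest to 0 are those without Cre 4, from -0.820 for Ckm to -1.53 for Pfkm.

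Among themselves the genes differed most along 1 line, from Ckm to Pfkm. The Euclidean distance between profiles over the 5 BAT libraries was 0.950 for Ckm and Pfkm, the widest of the 21 pairs, and 0.074 for Ampd1 and Cox6a2, the closest. Pygm and Eno3 came next at 0.104. Distances to the mean profile of the 7 genes were 0.103 for Cox6a2, 0.130 for Ampd1, 0.134 for Eno3, 0.211 for Pygm, 0.313 for Ckmt2, 0.379 for Ckm and 0.602 for Pfkm. The median over all BAT genes was 2.38.

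Among the genes outside the group with the nearest profiles, by that distance over the same 5 libraries, were Neb (0.068), Cacna1s (0.080), Hrc (0.097) and Rpl3l (0.105). Neb encodes the thin filament protein nebulin, Cacna1s the voltage sensor of excitation and contraction coupling, Hrc a calcium-binding protein of the sarcoplasmic reticulum, and Rpl3l a ribosomal protein made in striated muscle in place of Rpl3. Altogether 145 other BAT genes, or 5.82%, were at least as near to the mean profile as Pfkm was. They included 31 of the 34 muscle fibre and sarcomere markers. This likeness is a description over 5 libraries and carries no test.

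The structural genes of muscle also had both controls highest and Cre 4 lowest. All 15 fast fibre markers, all 9 slow fibre markers and all 10 further sarcomere and calcium-coupling markers were in the BAT table, and all 34 were lower in Cre without overlap, beside 28.7% of all genes. Their median differences were -1.59, -1.72 and -1.76. None was called by limma after adjustment. Acta1, the actin of skeletal muscle fibres, had 1.03 and 1.07 in the controls and -1.91, 0.090 and 0.094 in Cre 4, 5 and 6. The mean z-scores of the fast list were, from control 1 to Cre 6, 1.12, 1.01, -1.85, 0.080 and 0.063, and those of the 7 energy genes were 1.16, 1.10, -1.75, 0.054 and -0.048. Those of the slow list were 1.08, 1.27, -1.64, -0.172 and 0.061. There control 2 was above control 1 and Cre 6 above Cre 5, the reverse of the mean of the energy genes. Of the 7 genes, Ampd1 and Cox6a2 also had control 2 above control 1, and Ckmt2 had Cre 6 above Cre 5.

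Fast and slow fibre genes differed in which control was higher. Control 1 was the highest library for 12 of 15 fast fibre markers and control 2 for 9 of 9 slow fibre markers. Over all BAT genes, control 1 was highest for 70.7%, near the share of the fast list, and control 2 for 8.72%. Myh7, the myosin heavy chain of slow fibres, had 1.0 in control 1 and 1.18 in control 2, and Myh4, the heavy chain of the fastest fibres, had 1.16 and 0.862. Of the energy genes Ckm, Pygm and Eno3 leaned to control 1, by 0.151, 0.169 and 0.092, and Ckmt2, Ampd1, Pfkm and Cox6a2 were within 0.072 between controls. This lean was not tested, and it rests on 2 libraries.

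**Figure D3:**
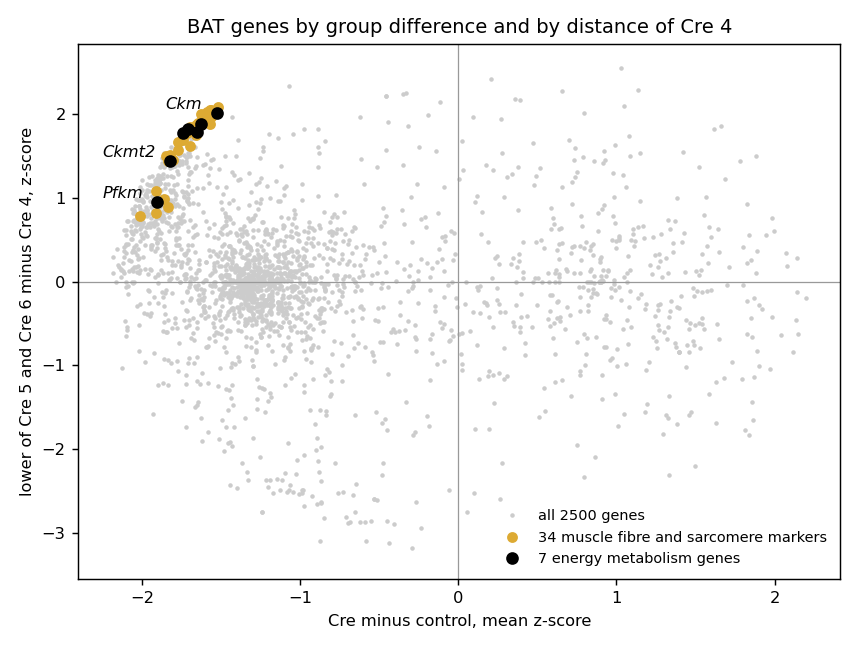
All 2500 BAT genes (grey) by Cre minus control (horizontal axis, mean z-score) and by how far the lower of Cre 5 and Cre 6 lies above Cre 4 (vertical axis, z-score), with 34 muscle fibre and sarcomere markers in yellow and the 7 energy metabolism genes in black. The energy genes run from Ckm (-1.53 and 2.02) to Pfkm (-1.90 and 0.952) along the band of muscle markers.

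Partners of these enzymes in glycogen breakdown were few in the BAT table, and those present were lower in Cre. Of 18 glycogen handling genes 4 were listed, and all 4 were lower without overlap, beside 28.7% of all BAT genes, with a median difference of -1.90 beside -1.29 over all genes. Phka1, the muscle alpha subunit of the kinase that activates Pygm, had 1.68 and 1.03 in the controls and -1.06, -0.542 and -0.325 in Cre 4, 5 and 6. Phkg1, the catalytic subunit of that kinase in muscle, had 1.46 and 1.06 against -1.48, -0.071 and -0.307. Ppp1r3a, which anchors a phosphatase to muscle glycogen, differed by -1.92, and Ugp2, which makes the UDP-glucose for glycogen synthesis, by -1.67 with its lowest value of -1.83 in Cre 5. Unlike Ckm, both kinase subunits had their controls visibly apart, with control 1 the higher.

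Of 20 glycolysis and lactate genes 3 were in the BAT table. Pgam2, the phosphoglycerate mutase of muscle, which acts just before enolase, had 1.22 and 0.985 in the controls and -1.77, 0.145 and 0.054 in Cre 4, 5 and 6, values close to those of Eno3. Slc16a3, the lactate exporter MCT4 of fast fibres, was lower without overlap too, by -1.75. Over all BAT genes 28.7% were lower without overlap, and the median difference was -1.29. The brain-type aldolase Aldoc had overlapping groups, with 0.199 and 0.772 in the controls and -1.42, 1.21 and -1.27 in Cre 4, 5 and 6. Of 11 creatine and adenine nucleotide genes 3 were listed. Ak1, the adenylate kinase that supplies AMP, and Adssl1, the muscle enzyme that returns IMP towards AMP in the purine nucleotide cycle, differed by -1.61 and -1.56 without overlap. Gatm, an enzyme of creatine synthesis, had 1.92 in control 1 and -0.664 in control 2, against -0.624, -0.739 and 0.727 in Cre 4, 5 and 6, and its groups overlapped. Of the 15 muscle-type mitochondrial and fuel genes only Mb, the oxygen store myoglobin, was in the BAT table, with 1.15 and 1.199 in the controls and -1.75, -0.043 and -0.136 in Cre 4, 5 and 6.

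Of 12 isoforms of the same enzymes used by other tissues 3 were in the BAT table, and 1 was lower and 1 higher in Cre without overlap. Ckb, the brain-type creatine kinase, which brown adipocytes also use, was higher in Cre without overlap, beside 4.36% of all genes: it had -1.12 and -0.948 in the controls and 0.097, 1.84 and -0.406 in Cre 4, 5 and 6. Its difference of 1.54 had a standard error of 0.882 (limma adjusted p = 0.531), and Cre 5 was its highest library by a wide margin. Ckmt1, the ubiquitous mitochondrial creatine kinase, had 2.19 in control 1 and -0.225 in control 2, against -0.643, -0.312 and -0.762 in Cre 4, 5 and 6. The neuronal enolase Eno2 had 2.04 and -0.621 in the controls and -0.492, 0.0013 and -1.09 in the Cre libraries. Ckmt1 was thus lower in Cre without overlap, by -1.55, but with control 2 only just above Cre 5, and the groups of Eno2 overlapped. Both were high in control 1 alone, where Ckmt2 and Eno3 were high in both controls. The non-muscle phosphorylases, AMP deaminases and phosphofructokinases and Cox6a1 were not listed in BAT.

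Transcription factors of the muscle lineage were also in the table. Of 13 myogenic regulators 8 were listed, and all 8 were lower in Cre without overlap, beside 28.7% of all BAT genes, with a median difference of -1.89 beside -1.29 over all genes. Myod1, a master regulator of myogenesis, had 1.52 and 1.10 in the controls and -1.07, -0.023 and -0.463 in Cre 4, 5 and 6. Myog, which drives terminal differentiation, had 0.437 and 2.05 in the controls and -0.785, -0.409 and -0.683 in the same Cre libraries. Myf6 and Mef2c, which maintain muscle gene expression in mature fibres, differed by -1.99 and -1.91. Limma called none of the 8 after adjustment, and 5 had an unadjusted p under 0.05, beside 10.5% of all BAT genes on the lower side.

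Markers of other contractile cells were mixed. Smooth muscle markers (3 of 6 in the table, Acta2, Myh11 and Cnn1) had higher Cre means, where 82.5% of all BAT genes had a lower one. Their list mean was -2.04 in control 1 and between 0.024 and 1.201 in the other libraries. Myh11 was higher in Cre without overlap, beside 4.36% of all BAT genes, but narrowly, with 0.131 in control 2 and 0.140 in Cre 4. Of 10 cardiac markers 3 were listed. Actc1 and Myh6, which some skeletal muscle cells also express, were lower in Cre without overlap, by -2.03 and -1.95. The share of all BAT genes lower without overlap was 28.7%. Tnni3, the troponin I of heart, had overlapping groups, with 2.19 in control 1 and -0.654 in control 2.

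**Figure D4:**
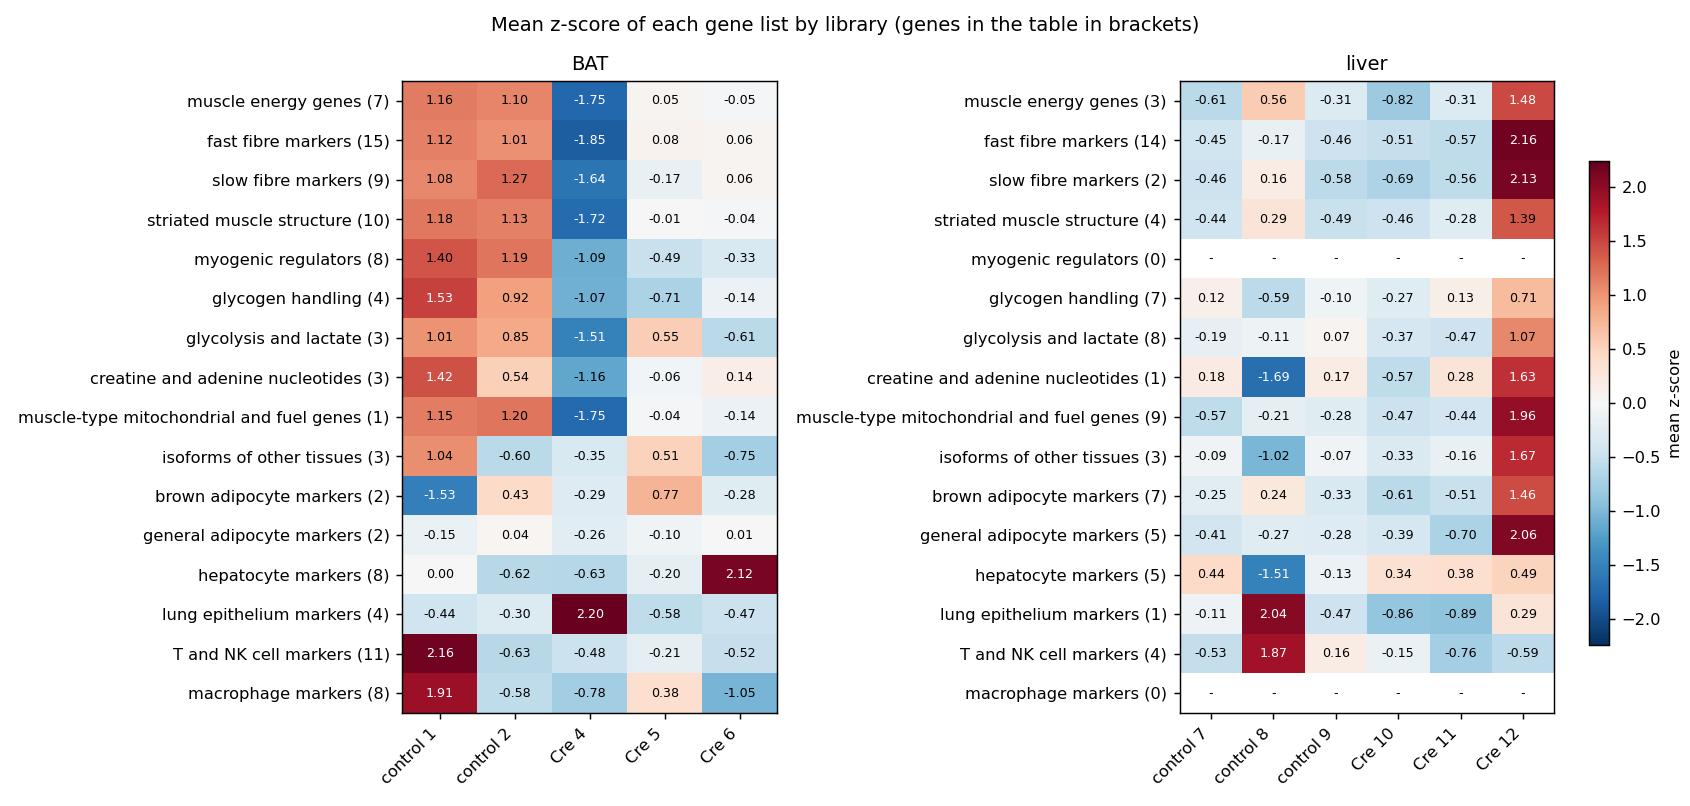
Mean z-score (colour and printed value) of each gene list (rows, genes in the table in brackets) in each library (columns) of BAT and liver; a dash marks a list with no gene in the table. In BAT the energy genes, the fibre markers and the sarcomere markers share high controls and a low Cre 4. In liver the means of these lists are highest in Cre 12, as those of adipocyte markers are, though Eno3 and Neb were highest in control 8.

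In the GENCODE M21 annotation of GRCm38, the 7 genes lay on 6 chromosomes. Ckm was at chromosome 7, 19404776 to 19422841, and Cox6a2 at chromosome 7, 128205435 to 128206387. Ckmt2 was at chromosome 13, 91853387 to 91876885, Pygm at chromosome 19, 6384399 to 6398459, Ampd1 at chromosome 3, 103074014 to 103099720, Eno3 at chromosome 11, 70657202 to 70662513, and Pfkm at chromosome 15, 98092589 to 98132451. All are protein-coding. The library protocol describes strand-specific and unstranded preparation without saying which was used, so reads of Pfkm could include those of Senp1 and reads of Cox6a2 those of Itgad, which overlap them on the opposite strand, and antisense transcripts are annotated over Ckm and Ckmt2. On the same strand, Gm26513 overlaps Pfkm, and Gm23820 and Gm43063 overlap Ampd1. None of these overlapping genes was in the BAT table. Pygm and Eno3 have no overlapping gene in this annotation.

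The sequence before their starts is shown, because the genes share a BAT profile, for the 4 genes with a single start listed by RefSeq (GRCm38.p6): the 250 bases that end just before the start, 5′ to 3′ on the gene's own strand. The windows are chr7:19410844-19411093 (plus strand) for Ckm, chr13:91876886-91877135 (minus strand) for Ckmt2, chr19:6384158-6384407 (plus strand) for Pygm and chr11:70656926-70657175 (plus strand) for Eno3. RefSeq windows matched 5 of the 7 genes, with 4 starts for Pfkm. Of the genes shown, Ckm and Pygm have RefSeq starts that lie inside the spans GENCODE gives them. Capitals mark CANNTG, the E-box that basic helix-loop-helix factors such as MyoD recognise.
Ckm: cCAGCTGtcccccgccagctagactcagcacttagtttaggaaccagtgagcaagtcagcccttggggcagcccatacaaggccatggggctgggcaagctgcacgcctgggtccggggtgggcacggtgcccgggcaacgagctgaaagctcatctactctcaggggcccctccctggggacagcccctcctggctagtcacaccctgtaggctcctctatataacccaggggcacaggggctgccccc
Ckmt2: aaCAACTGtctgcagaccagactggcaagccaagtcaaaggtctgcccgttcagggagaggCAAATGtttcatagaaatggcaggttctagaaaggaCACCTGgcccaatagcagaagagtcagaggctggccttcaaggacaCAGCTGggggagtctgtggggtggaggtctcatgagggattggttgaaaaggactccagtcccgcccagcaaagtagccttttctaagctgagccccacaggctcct
Pygm: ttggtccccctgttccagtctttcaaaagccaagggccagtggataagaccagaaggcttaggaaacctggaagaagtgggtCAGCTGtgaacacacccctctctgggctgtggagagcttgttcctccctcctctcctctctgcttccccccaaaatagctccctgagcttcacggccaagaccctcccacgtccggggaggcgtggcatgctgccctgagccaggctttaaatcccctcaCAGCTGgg
Eno3: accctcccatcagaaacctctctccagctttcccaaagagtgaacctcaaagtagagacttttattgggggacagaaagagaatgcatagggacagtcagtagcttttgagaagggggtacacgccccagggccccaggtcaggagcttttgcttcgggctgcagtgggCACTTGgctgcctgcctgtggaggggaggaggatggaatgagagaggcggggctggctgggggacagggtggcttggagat

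The Ckm and Eno3 windows each held 1 E-box, the Pygm window 2 and the Ckmt2 window 4, and 3 of the 4 Pfkm windows at least 1. CANNTG reads the same on both strands and is common: 66.2% of the 32851 RefSeq windows of this length held it. Its form CAGCTG, which is counted within CANNTG, was in the windows of Ckm, Ckmt2 and Pygm, 3 of 5 genes. These were 3 of the 8 windows of the 5 genes, beside 13% of all windows. TATATAA, searched on both strands, was in the Ckm window and in 3.04% of all windows. The MEF2 and CArG consensus motifs, searched on both strands, were in no window of the 5 genes, beside 2.92% and 1.47% of all windows. These are letter matches in short windows, not sites.

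In liver, the 3 listed genes showed no common direction. None of the 3 had non-overlapping groups, beside 10.3% of liver genes with every Cre library above every control and 12.3% with every Cre library below. After adjustment limma called no gene of the liver table (0%). On an unadjusted p under 0.05 none of the 3 genes passed either, where 3.24% of all liver genes did on the higher and 2.52% on the lower side, and the median difference over all liver genes was -0.500.

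Liver controls 7, 8 and 9 had Ckm z-scores of -0.566, -0.093 and -0.519. The Cre values were -0.549 in Cre 10, -0.480 in Cre 11 and 2.21 in Cre 12. Cre 12 alone was high, and Cre 10 and Cre 11 lay within the range of the controls. The Cre mean was 0.393 ± 1.57 (SD, n = 3) and the control mean -0.393 ± 0.261 (SD, n = 3), a difference of 0.785 with a standard error of 0.920 (limma adjusted p = 0.675). Without Cre 12 the difference was -0.122, the opposite direction.

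Pygm ran through -0.999, -0.298 and -0.0022 over controls 7, 8 and 9. Its Cre values, in the order of Cre 10, 11 and 12, were -0.823, 0.066 and 2.06. Again Cre 12 was far above the rest, and the groups overlapped through Cre 10. The difference was 0.866 with a standard error of 0.901 (limma adjusted p = 0.659), and 0.054 without Cre 12. Without Cre 10 both remaining Cre libraries lay above all controls, Cre 11 by a narrow margin, as for 15.9% of all liver genes.

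Eno3 went another way. It had 2.08 in control 8 and -0.260 and -0.403 in controls 7 and 9, against -1.08, -0.504 and 0.168 in Cre 10, 11 and 12. Control 8 alone was high. The difference was -0.944 with a standard error of 0.882 (limma adjusted p = 0.648), and -0.141 without control 8. Without Cre 12 the other two Cre libraries lay below all controls, as for 17.4% of all liver genes. The exact two-sided permutation test over 20 arrangements gave p = 0.6 for Ckm and p = 0.4 for Pygm and for Eno3, where 0.1 is the smallest p that 3 against 3 can give.

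**Figure D5:**
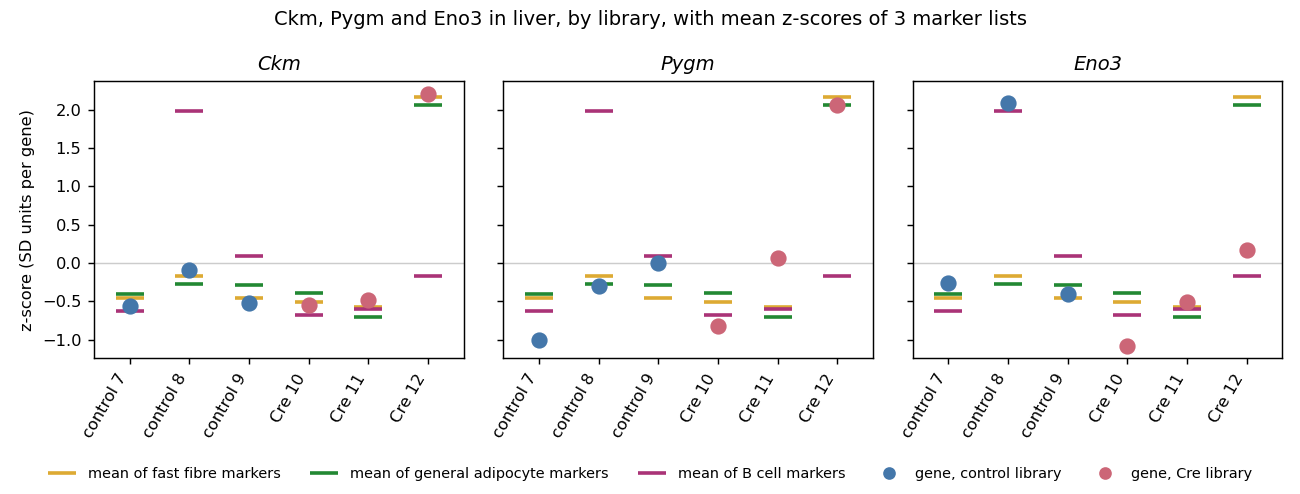
Z-score (vertical axis, SD units per gene) of Ckm, Pygm and Eno3 in each liver library (horizontal axis; blue points control, red points Cre), with short horizontal lines for the mean z-score of fast fibre, adipocyte and B cell markers in the same library. Ckm and Pygm are high in Cre 12 (2.21 and 2.06), as fast fibre and adipocyte markers are, and Eno3 is high in control 8 (2.08), as B cell markers are.

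Markers of other tissues moved with the same liver libraries. Of 15 fast fibre markers 14 were in the liver table and all 14 were highest in Cre 12, with a list mean of 2.16 there and between -0.571 and -0.167 in the other libraries. The 5 listed of 8 general adipocyte markers were all highest in Cre 12 as well, with a mean of 2.06 against -0.703 to -0.272. Of 7 listed brown adipocyte markers 5 were highest in Cre 12, among them Ucp1 (2.17), and 1 each in controls 7 and 8. All 9 listed muscle-type mitochondrial and fuel genes were highest in Cre 12, among them Mb (2.23) and the oxidase subunits Cox7a1 (2.21) and Cox8b (2.20), isoforms found in muscle and in brown fat. Cre 12 was the highest library for 17.2% of all liver genes. The part of muscle or adipose material in the Ckm and Pygm values was not tested. No myogenic regulator was in the liver table.

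Control 8, where Eno3 was high, was the highest library for 56.4% of all liver genes. Its B cell markers (6 of 7 in the table) had a mean of 1.98, against -0.677 to 0.084 in the other libraries, and its hepatocyte markers (5 of 9) had -1.51 against -0.126 to 0.490. The sarcomere gene Neb, the nearest in BAT profile to the energy genes, was high in control 8 as well (2.04) and lowest in Cre 12 (-1.08), while the other 3 listed sarcomere genes, Ttn, Tcap and Ryr1, were highest in Cre 12 (2.22, 2.22 and 2.19). Of the 7 listed glycogen handling genes Phkg1 had 2.05 in control 8 and -0.809 in Cre 12, but 4 were lowest in control 8, and the list mean there was -0.585. Eno1, the enolase of most tissues including liver, had its lowest value of -1.92 in control 8 and its highest, 1.48, in Cre 12. The part of these markers in the Eno3 value was not tested.

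The 3 listed isoforms of other tissues, Eno1, Pfkl and Pfkp, were all highest in Cre 12, as Ckm and Pygm were, with a mean of 1.67 there and negative means in the other libraries. Pfkl, the liver phosphofructokinase, had control values of -0.058, -1.74 and -0.263 and Cre values of 0.184, 0.203 and 1.68, in library order, so every Cre library lay above every control. The difference was 1.38 with a standard error of 0.726 (limma adjusted p = 0.623). The platelet-type Pfkp had 1.84 in Cre 12 and -1.07 and -0.945 in the other Cre libraries, with overlapping groups and a difference of -0.115. Of the 7 listed glycogen handling genes 6 had a higher Cre mean and none had non-overlapping groups, and of the 8 glycolysis and lactate genes 6 had a higher and 2 a lower Cre mean, beside 39.6% of all liver genes with a higher and 60.4% with a lower Cre mean.

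Ckm, Pygm and Eno3 could be set side by side in both tissues. Cre minus control was -1.53 in BAT and 0.785 in liver for Ckm, -1.63 and 0.866 for Pygm, and -1.65 and -0.944 for Eno3. The tissues were scaled separately and the labels do not say whether they came from the same mice, so the difference between tissues was not tested. In BAT the groups of these genes did not overlap, and in liver they did.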

How the data were processed

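RNA sequencing of BAT and liver was taken from 2 tables of 2500 genes. The deposited values are scores: from the values, row z-scores over 6 libraries (squares sum to 6 within 1e-06 in all 2500 rows of each table; in BAT once minus the row sum is counted as 1 more value). Per the submitters' processing notes, the tools named were DESeq2 1.20.0 and TopHat 1.3.3, and the genome builds GRCm38, mm10 and mm9, none with a role. The sheets are named for genes downregulated (BAT) and upregulated (liver) in Cre, though both hold genes of either direction. The rule that chose the genes, and whether values were logged, were not found in the labels used here.

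Each tissue was fitted with limma's gene-wise linear model without variance moderation (limma 3.58.1, R 4.3.3, two-sided) on all 2500 genes, with Benjamini-Hochberg adjustment and a threshold of 0.05. Genes with a residual SD under 1e-06 were not tested. The fit was tested on simulated data. Groups came from sample titles. The 7 genes and 21 further lists were chosen with earlier results of these data known, and the motifs after the BAT values were seen. Genes that could be named were the 7, the first 4 of each list present in a table, and the 5 nearest profiles, of which 1 is not reported here. Alternatives were moderation, ranks, leaving out genes tied at the lowest value, medians, rescaling and each library left out. Summaries used Python 3.11.15, pandas 2.3.3, scipy 1.17.1 and matplotlib 3.10.9. Depth is unknown.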

Additional observations from a re-analysis of the deposited data

Results flagged for a closer look

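Acta1, the actin of skeletal muscle fibres, had every Cre library below both controls in BAT (Cre minus control -1.62) and every Cre library above all controls in liver (0.938). It is given because every Cre library lay on opposite sides of the controls in the 2 tissues, and the difference between tissues was not tested. The margin in liver was narrow, with Cre 11 at -0.437 and control 8 at -0.442. Over all genes, 28.7% were lower in Cre without overlap in BAT and 10.3% higher without overlap in liver. Of the fast fibre markers 15 of 15 had a lower Cre mean in BAT, beside 82.5% of all BAT genes. In liver 13 of 14 had a higher Cre mean, beside 39.6% of all liver genes, and only Acta1 was higher without overlap. In liver 2.23 in Cre 12 stood against -0.518 to -0.390 in the other five libraries.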

How the results depend on the processing

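All 63 alternative values of the 7 genes in BAT lay between -2.16 and -0.744. Their direction could not change, since every Cre library was below both controls for each gene. With both controls kept, no limma adjusted p passed 0.05 (0.161 to 0.716). Without both control 1 and Cre 4 the differences ran from -0.744 to -1.50. The count of BAT genes past the adjusted threshold was 0 with all libraries, with moderation, on ranks and without tied genes, and 0 to 433 with 1 library left out. The 433 came without control 2, and none of the 7 genes was among them (adjusted p from 0.217 to 0.470). The 7 genes stayed non-overlapping with any library left out (7 to 7). So did the 15 fast fibre, 9 slow fibre, 10 sarcomere and 8 myogenic genes, a setting added after the data were seen. None of these counts could fall, because groups that do not overlap with all libraries stay apart when 1 is dropped. In liver the count of genes past the threshold was 0 in every setting, and the count of the 3 genes with non-overlapping groups ran from 0 to 1, with Pygm the 1 without Cre 10 and Eno3 the 1 without Cre 12. With 1 library left out the Ckm difference in liver ran from -0.122 to 1.26, and the reversal to -0.122 came without Cre 12. The other 23 of 24 liver values kept their direction, and the Eno3 difference of medians was -0.244. The unadjusted counts with all libraries were 285 in BAT and 144 in liver. No paired analysis was possible because no replicate number is shared between groups. Depth could not be weighed, since the z-scores keep none.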
